A study of Mus musculus with 9 samples.

Results

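The nuclear genes for the subunits of the oxidative phosphorylation (OXPHOS) complexes were examined in RNA sequencing of transduced mouse bone marrow cells. Members were chosen by gene symbol alone: the Nduf subunits of the a, b, c, s and v series, Sdha to Sdhd, the Uqcr genes, the Cox4 to Cox8 families and the Atp5 genes, without symbols marked as pseudogenes by "-ps". The rule took 88 of the 55274 gene identifiers, namely 40 of complex I, 4 of complex II, 8 of complex III, 18 of complex IV and 18 of complex V. Of these, 82 were tested, because 3 or more of the 9 libraries gave them FPKM (fragments scaled to transcript length and library depth) no lower than 1, as did 13493 of all identifiers. Among the 82 tested, 78 are annotated as protein-coding and 4 as processed pseudogenes without "-ps" in the symbol: Ndufa11b, Ndufb4c, Ndufs6b and Cox6c2. Cox4i1, the common isoform of subunit 4 of complex IV, was not analysed here.

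Oxidative phosphorylation runs in the inner mitochondrial membrane. Complex I (NADH dehydrogenase) and complex II (succinate dehydrogenase) feed electrons into ubiquinone, complex III passes them to cytochrome c, complex IV (cytochrome c oxidase) reduces oxygen, and complex V (ATP synthase) uses the resulting proton gradient to make ATP. Most subunits are encoded in the nucleus and imported, while a small set, none of it in complex II, is transcribed from mitochondrial DNA, so both genomes supply the complexes that pump or use protons. Myeloid and mast cells also rely on glycolysis, and the balance of both routes is known to change as blood cells mature and proliferate.

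The 9 libraries formed 3 groups of 3, named by the construct carried: NRASG12D, NUP98-NSD1, and NUP98-NSD1 together with NRASG12D (NUP98-NSD1+NRASG12D). NUP98-NSD1 is a fusion oncogene of acute myeloid leukaemia and NRASG12D an activated RAS mutant. All groups were marrow from female C57BL/6J mice of 6 to 8 weeks, taken 4 days after 5-fluorouracil at 150 mg/kg and stimulated for 48 h with human IL-6 (10 ng/mL), mouse IL-3 (6 ng/mL) and mouse SCF (20 ng/mL). The cells were then transduced with MSCV retroviral vectors, NUP98-NSD1 with a GFP marker and NRASG12D with a BFP marker, sorted and expanded in culture. No library of cells without an oncogene was analysed here, so each comparison is between oncogenes, and all 3 comparisons share groups. Nothing in the labels says that replicates came from separate animals or cultures, so p-values measure only the spread between these samples, which may be technical.

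The steps of the FPKM values placed the depth at 22500000 to 35500000 fragments per library. Over all genes FPKM summed to 536188 to 565574 in the NRASG12D libraries, to 593437 to 637679 in those with the fusion alone and to 611015 to 675144 in those with both oncogenes, so the scale itself differed between groups. Nras, the gene of the NRASG12D construct, read 348 to 479 FPKM with NRASG12D alone, 47.7 to 51.2 with the fusion alone and 245 to 701 with both, as the labels have it. The groups also differed in cell type markers. The summed FPKM of 9 mast cell markers ran from 30017 to 32656 with NRASG12D alone, 13672 to 17477 with the fusion alone and 459 to 2514 with both. Another marker, Cpa3, was listed at 0 in all 3 NRASG12D libraries and was high in the others. Whether that 0, beside such levels of the other 9 markers, is a true level was not tested. Sums that include Cpa3 may therefore not be comparable between groups. With Cpa3 included, the summed FPKM was 30017 to 32656, 26832 to 31856 and 739 to 4335 in the same order, so the drop with the fusion alone depended on leaving it out. That of 10 granulocyte markers was 29.7 to 36.9, 1727 to 6125 and 8874 to 19506, and that of 8 monocyte and macrophage markers 48.1 to 132, 1742 to 2392 and 5164 to 14000. The study describes its NRASG12D cultures as mainly IgE receptor-positive mast cells, so a difference from them is also a difference between cell types. In bulk samples a smaller share of one cell type and less RNA per cell cannot be told apart.

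The stretch just before the transcription start is shown for members that carry a known respiratory gene motif in it, so that the letters behind the shares below can be seen. The RefSeq promoter table (GRCm38.p6) gave 250 bases before to 50 bases after the start for 68 of the 88 members. Atp5k (complex V, subunit e, on chr5:108434400-108434499, minus strand), Ndufa11 (complex I membrane arm, chr17:56717662-56717761, plus strand) and Atp5g2 (complex V, c-ring, chr15:102671048-102671147, minus strand) are given 5′ to 3′ for the 100 bases before the start, with the letters of nuclear respiratory factor 1 (NRF1), which match there on both strands, in capitals. Atp5g3 (c-ring, chr2:73911327-73911426, minus strand) is given with the estrogen-related receptor letters, which lie on the opposite strand, in capitals.
Atp5k: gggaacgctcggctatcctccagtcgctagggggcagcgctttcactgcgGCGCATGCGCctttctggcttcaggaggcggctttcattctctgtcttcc
Ndufa11: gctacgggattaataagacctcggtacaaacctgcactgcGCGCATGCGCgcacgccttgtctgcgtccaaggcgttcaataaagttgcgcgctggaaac
Atp5g2: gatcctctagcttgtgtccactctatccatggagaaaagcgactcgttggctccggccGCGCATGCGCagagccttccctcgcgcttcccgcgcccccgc
Atp5g3: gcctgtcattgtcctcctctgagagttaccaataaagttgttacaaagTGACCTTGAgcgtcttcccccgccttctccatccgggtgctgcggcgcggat

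Searched on both strands, the NRF1 letters GCATGCGC were in 10 of 68 member promoters (14.7%), against 6.19% of the 9117 tested genes with a promoter in the table and 3.05% of all 27025. In Atp5k, Ndufa11, Atp5g2, Cox6a1 and Uqcrc1 they matched on both strands, overlapping as a palindrome, which began 50 bases before the start in Atp5k, 60 in Ndufa11 and 42 in Atp5g2. The YY1 letters AAGATGGCG were in 7 members (10.3%, against 3.85% of tested genes): Atp5j, Atp5j2, Ndufa9, Ndufc1, Ndufs4, Ndufs6 and Ndufs7. The GABPA letters CCGGAAGT were in 5 (7.35%, against 9.85%), and the estrogen-related receptor letters TCAAGGTCA in 2 (2.94%, against 0.329%), Atp5g3 and Sdhd. The changes of members with and without the NRF1 letters were close. In NUP98-NSD1 against NRASG12D cells the median log2 fold change was 0.53 for the 10 tested members with the NRF1 letters and 0.57 for the 56 without, and 0.64 for the 7 with the YY1 letters against 0.56 for the 59 without. These matches describe letters in a window, not sites.

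The members were abundant. Per transcript length, 77 of the 82 tested members had at least 10 FPKM in every library, and together they made up 1.67% to 2.87% of summed FPKM. The members with the highest mean level of their complex over all libraries were Atp5b of complex V, the catalytic beta subunit (606 FPKM), Cox6a1 of complex IV (474 FPKM), Ndufa4 (295 FPKM, named as a complex I gene but known as a subunit of complex IV), Uqcrq of complex III, and Sdhb of complex II, the iron-sulphur subunit (191 FPKM). The other 5 tested members were low in some library: the tissue isoforms Cox6a2, Cox6b2 and Cox7a1, and the processed pseudogenes Ndufa11b and Ndufs6b. The 6 members that were not tested were Cox4i2, Cox7b2, Cox8b, Cox8c, Ndufa4l2 and an extra identifier of Atp5o, and of these Cox7b2, Cox8b and Cox8c were listed at 0 in every library.

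All 5 complexes stood lower in the NRASG12D libraries than in the NUP98-NSD1 libraries. As the mean of log2(FPKM + 1) over members, the 82 genes together stood at 6.45 ± 0.12 (SD, n = 3) in NRASG12D, 6.96 ± 0.13 in NUP98-NSD1 and 6.99 ± 0.34 in NUP98-NSD1+NRASG12D libraries. Complex I stood at 6.14 ± 0.14, 6.66 ± 0.13 and 6.68 ± 0.35 in the same order, and complex II at 6.61 ± 0.07, 7.15 ± 0.13 and 7.27 ± 0.27. Complex III, whose members are cytochrome bc1 subunits, stood at 7.06 ± 0.15, 7.69 ± 0.20 and 7.80 ± 0.40. Complex IV had the smallest span, 5.96 ± 0.08, 6.32 ± 0.05 and 6.33 ± 0.24, and complex V stood at 7.22 ± 0.13, 7.79 ± 0.14 and 7.80 ± 0.40. The library levels of NRASG12D and NUP98-NSD1 cells did not overlap in any complex, whereas those of NUP98-NSD1 and NUP98-NSD1+NRASG12D cells overlapped in each.

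**Figure D1:**
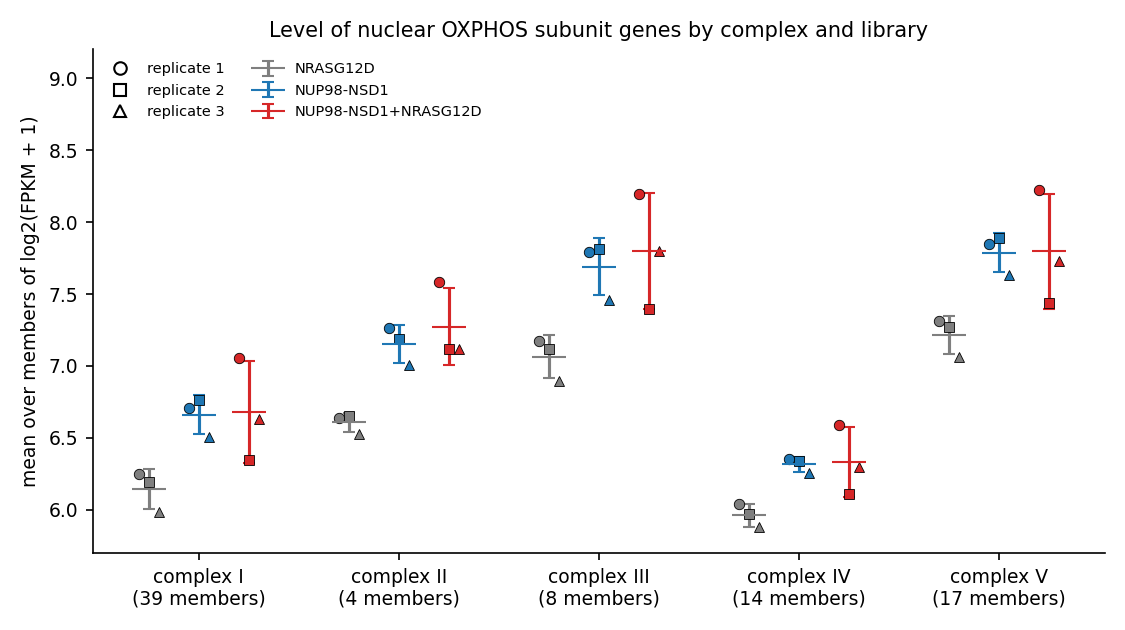
Mean of log2(FPKM + 1) over the tested members of each complex (vertical axis), for each library (points, shaped by replicate) with the group mean and SD (bars, n = 3), by complex along the horizontal axis. The 3 NRASG12D libraries sit below the 3 NUP98-NSD1 libraries in every complex, and replicate 1 of NUP98-NSD1+NRASG12D stands above its group, for all members at 7.35 against 6.67 and 6.94 in replicates 2 and 3.

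The members moved together from library to library. Replicate 1 of NUP98-NSD1+NRASG12D had the highest value of all 9 libraries for 73 of the 82 members, and NRASG12D replicate 3 the lowest for 66. The summed FPKM of other gene families was also highest and lowest in these libraries, so the order is not particular to the members. It was 7400 and 2972 for the mitochondrial ribosome, 50703 and 24552 for the cytosolic ribosome, and 7277 and 3293 for the proteasome. The share of all genes with this order was not counted. Within groups, NUP98-NSD1 replicate 3 was the lowest of its 3 for 75 members and NUP98-NSD1+NRASG12D replicate 2 for 78. Summed over members, FPKM was 10616, 10210 and 8971 in NRASG12D, 15007, 15340 and 12822 in NUP98-NSD1, and 19354, 11699 and 14287 in NUP98-NSD1+NRASG12D libraries. The wide spread in the last group, in which the highest sum was over 1.5 times the lowest, lies behind every test that uses it. Its replicates 1, 2 and 3 also differed in cell type markers. The summed FPKM of 10 mast cell markers was 969, 4335 and 739, and that of 3 megakaryocyte markers 75.7, 1209 and 115. The part of cell type in the spread was not tested.

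**Figure D2:**
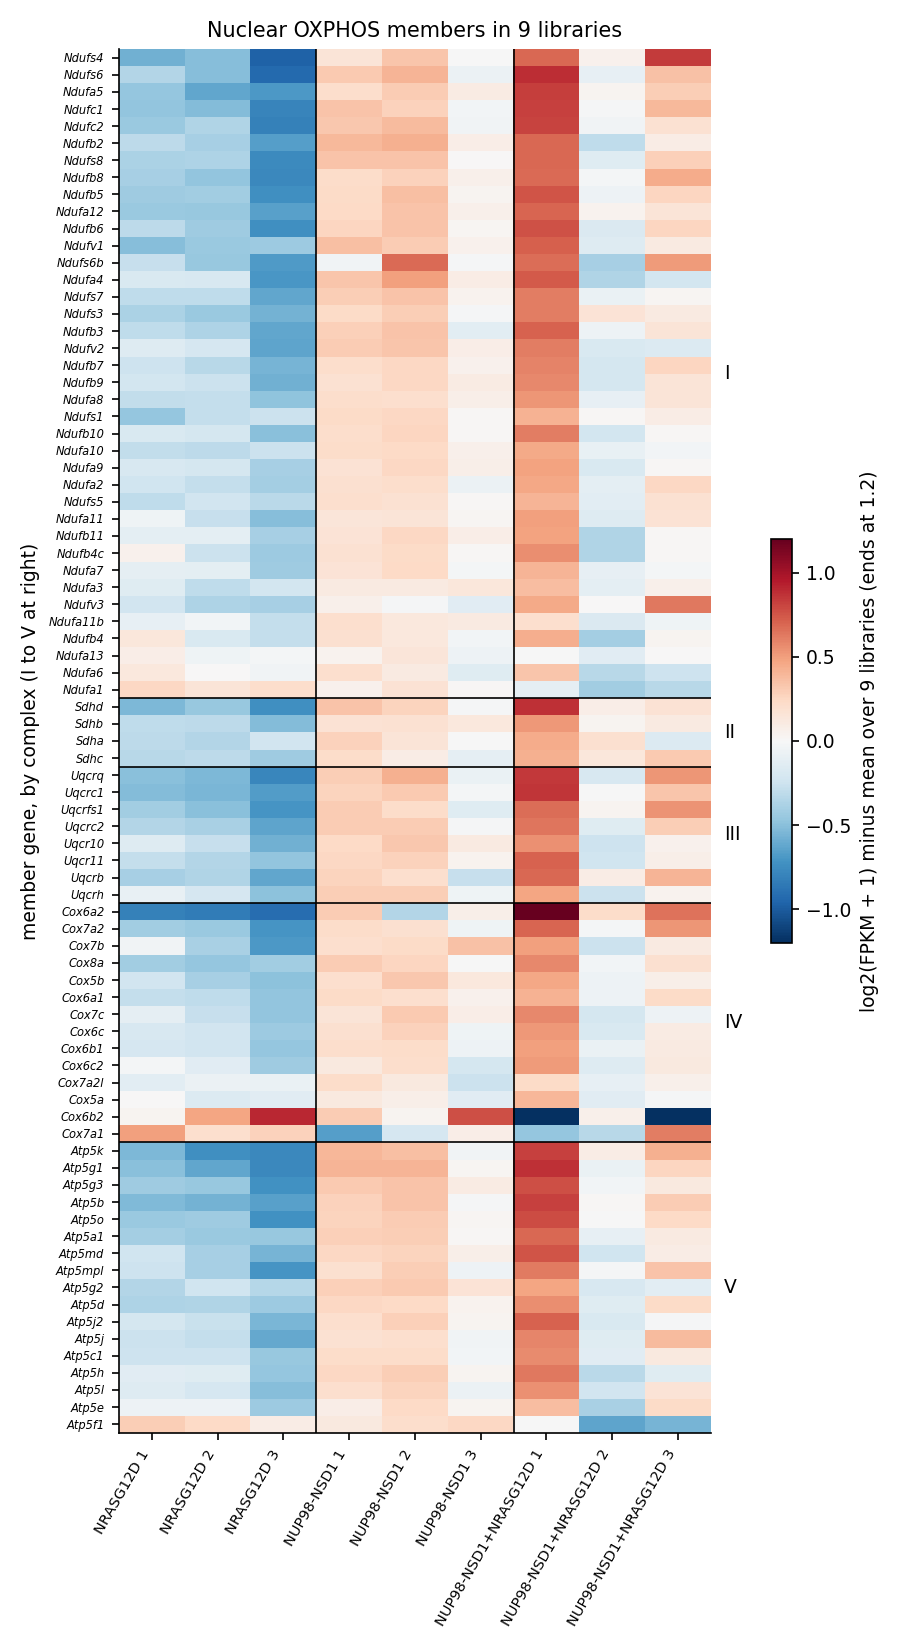
The tested members, with 1 left out (rows, ordered by complex I to V), in each of the 9 libraries (columns), coloured by log2(FPKM + 1) minus its mean over the 9 libraries, with colours ending at 1.2 in either direction. NRASG12D columns are below the mean for most members, and the column of NUP98-NSD1+NRASG12D replicate 1 is the highest for 73 of 82.

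The first comparison asked how cells with the NUP98-NSD1 fusion differed from cells with NRASG12D. Most OXPHOS members were higher with NUP98-NSD1: 69 of 82 members rose (84.1%) and 1, Cox7a1, fell, by limma with Benjamini-Hochberg adjustment over all 13493 genes at 0.05. The 69 include the processed pseudogene Ndufs6b. The background was itself shifted: 42.2% of all tested genes were called higher and 9.98% lower, and the median log2 fold change over all genes was 0.27. The members' median was 0.54, that is 0.27 above all genes, and 72 of 82 members were above the all-gene median. For 71 members every NUP98-NSD1 library exceeded every NRASG12D library, which held for 50.7% of all genes, and for 1 member every library was below (13.5% of all genes). At an unadjusted p under 0.05 there were 72 members, against 59.5% of all genes. The calls counted 33 of 39 in complex I (median 0.53), 4 of 4 in complex II (0.49), 8 of 8 in complex III (0.61), 9 of 14 in complex IV (0.45) and 15 of 17 in complex V (0.57).

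The size of this difference depended on the scale. With median-ratio scaling, which set the all-gene median to -0.01, 33 members were called higher and 5 lower, with a median of 0.21, against 22.7% and 23.3% of all genes. With quantile normalization 36 were higher and 4 lower (median 0.27, all genes -0.07), against 19.4% and 25.5% of all genes, and on a TPM-like scale 58 and 2, against 32.5% and 15.6%. A fit over all 9 libraries, which shares the wide spread of the NUP98-NSD1+NRASG12D group, called 31 higher and 0 lower, against 19.3% and 3.42%. On these scales the members were still more often higher than lower. There were 32 of 82 members called higher on the deposited scale and under all 3 other scalings. Among all genes the share meeting this can be at most 19.4%, the share called higher with quantile normalization.

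In complex I, the largest difference was in Ndufs4, an accessory subunit needed for the stability of the NADH-oxidizing arm. Its FPKM was 30.7, 32.2 and 23.1 in NRASG12D, 51.6, 58.5 and 46.0 in NUP98-NSD1, and 74.9, 47.9 and 83.3 in NUP98-NSD1+NRASG12D libraries. The NRASG12D libraries were the 3 lowest, without overlap. The log2 fold change in NUP98-NSD1 against NRASG12D cells was 0.85 ± 0.15 (SE, limma adjusted p = 0.00395), a 1.80-fold difference. Among the core subunits, Ndufv1, which binds NADH and its flavin, read 47.4, 49.5 and 50.0 against 87.5, 83.8 and 70.3 FPKM and rose by 0.70 ± 0.10 (adjusted p = 0.00202). Ndufs1, the largest iron-sulphur subunit, rose by 0.50 ± 0.10, but was not called with median-ratio scaling (0.18).

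Complexes II and III were called throughout in this comparison on the deposited scale. Sdhd, a membrane anchor of succinate dehydrogenase, read 92.1, 97.9 and 80.0 FPKM in NRASG12D, 171, 162 and 133 in NUP98-NSD1, and 247, 141 and 152 in NUP98-NSD1+NRASG12D libraries, so the NRASG12D libraries were again the lowest. It rose by 0.77 ± 0.12 (adjusted p = 0.00292), Sdhb by 0.54 ± 0.09, Sdha, the flavoprotein that oxidizes succinate, by 0.44 ± 0.09, and Sdhc, the other anchor, by 0.42 ± 0.10. Of these 4, Sdhd kept its call with median-ratio scaling (0.44). In complex III, Uqcrq, a small membrane subunit, read 203, 198 and 167, then 353, 386 and 272, then 517, 252 and 415 FPKM in the 3 groups and rose by 0.82 ± 0.15 (adjusted p = 0.00447). Uqcrc1, a core protein of the matrix side, rose by 0.76 ± 0.11 and Uqcrfs1, the Rieske iron-sulphur protein, by 0.67 ± 0.14. The smallest change was in Uqcrh, the hinge protein, at 0.44 ± 0.14 (adjusted p = 0.0353). With median-ratio scaling 5 of 8 members of complex III were called higher, and Uqcrh was not (0.10).

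In complex V, Atp5k had the largest difference on the log2(FPKM + 1) scale. It read 42.2, 36.6 and 35.7 FPKM in NRASG12D, 81.8, 79.8 and 59.99 in NUP98-NSD1, and 110, 66.1 and 83.6 in NUP98-NSD1+NRASG12D libraries, and rose by 0.92 ± 0.14 (adjusted p = 0.00238), a 1.90-fold difference without overlap. Atp5b read 399, 387 and 365 against 697, 730 and 571 FPKM and rose by 0.79 ± 0.11 (adjusted p = 0.0021), and Atp5a1, the alpha subunit, rose by 0.63 ± 0.10. The genes of the c-ring, whose mature proteins are identical, all rose: Atp5g1 by 0.91 ± 0.13, Atp5g3 by 0.79 ± 0.11 and Atp5g2 by 0.57 ± 0.08. Atp5f1, the b subunit of the peripheral stalk, stood apart from them at -0.01 ± 0.09 (adjusted p = 0.905), with 297, 286 and 257 against 263, 280 and 288 FPKM, overlapping, although its value was -0.35 and called lower with median-ratio scaling.

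In complex IV, 9 of 14 members rose, 4 were not called and 1 fell. Cox6a1, the common isoform of subunit 6a, rose by 0.51 ± 0.09 (adjusted p = 0.0045) and Cox5b by 0.59 ± 0.10. Cox5a, its partner on the matrix side, read 379, 336 and 342 in NRASG12D and 409, 395 and 343 FPKM in NUP98-NSD1 libraries, overlapping, at 0.12 ± 0.10 (adjusted p = 0.36). Cox7a2l, known for joining complexes III and IV into supercomplexes, was at 0.12 ± 0.13 (adjusted p = 0.459). Both values turned negative, to -0.22 and -0.22, with median-ratio scaling. Cox7a1, the heart and muscle isoform of subunit 7a, was the lone member that fell. It read 6.86, 5.43 and 5.77 FPKM in NRASG12D and 2.54, 3.87 and 4.91 in NUP98-NSD1 libraries, without overlap, and its log2 fold change was -0.58 ± 0.20 (adjusted p = 0.042), a call that was lost when any NRASG12D library or NUP98-NSD1 replicate 1 or 2 was left out.

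Outside complex IV, the members not called were Ndufa1, Ndufa6, Ndufa13, Ndufb4, Ndufa11b and Ndufb4c in complex I, and Atp5e and Atp5f1 in complex V, several of which were picked out after their values were seen. Ndufa1, an accessory subunit encoded on the X chromosome (chrX:37187588-37191163, minus strand), read 184, 172 and 179 in NRASG12D and 160, 174 and 156 FPKM in NUP98-NSD1 libraries, overlapping, at -0.13 ± 0.08 (adjusted p = 0.21). Ndufa6, Ndufa13 and Ndufa1 were all called lower with median-ratio scaling, at -0.31, -0.30 and -0.46. The processed pseudogene Ndufb4c shares all of its 50-base words with other annotated transcripts, and Cox6c2 52.7%, so reads of 50 bp within these words cannot tell them from the related genes. Ndufs3 shared 39.7%, Ndufb4 37% and Atp5o 34.9%. Of the 82 tested members, 34 shared no such word with any other gene and 24 shared over 10%.

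**Figure D3:**
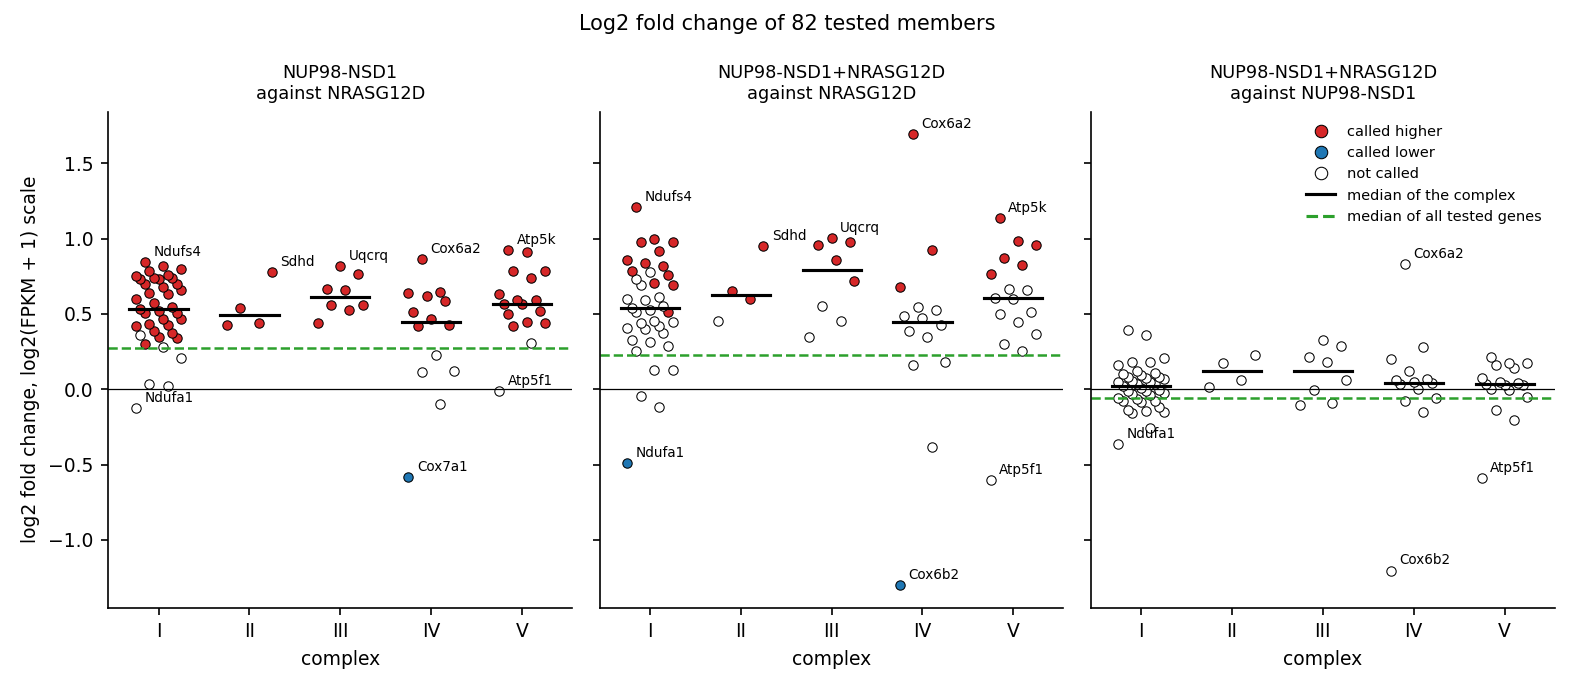
Log2 fold change on the log2(FPKM + 1) scale (vertical axis) of each of the 82 tested members (points) by complex (horizontal axis) in the 3 comparisons, coloured by limma call, with the median of the complex (line) and of all tested genes (dashed line, at 0.27, 0.23 and -0.06). Most members lie above the dashed line in each panel (72, 72 and 62 of 82), though closer to it against NUP98-NSD1. With median-ratio scaling the values of the first panels lie lower, with Cox5a and Cox7a2l below 0.

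The next comparison set cells with both oncogenes against cells with NRASG12D alone, so that it asked what the fusion changed on top of NRASG12D. On the deposited scale the OXPHOS genes were again higher on balance: 30 of 82 members (36.6%) rose and 2, Ndufa1 and Cox6b2, fell, against 24.2% and 14.1% of all genes called higher and lower. The members' median was 0.55, against 0.23 for all genes, and 76 of 82 values were positive. For 56 members every library with both oncogenes was above every NRASG12D library (38.7% of all genes), and for 2 members every library was below (19.9% of all genes). Calls higher counted 13 of 39 in complex I (median 0.54), 3 of 4 in complex II (0.63), 5 of 8 in complex III (0.79), 3 of 14 in complex IV (0.45) and 6 of 17 in complex V (0.60). With median-ratio scaling 26 (31.7%) rose and 3 fell (median 0.31), against 19.8% and 19.1% of all genes. With quantile normalization 14 (17.1%) rose and 5 fell, against 16% and 22.7%. On the TPM-like scale 17 (20.7%) rose and 3 fell, against 17.1% and 18.8%. On these last scales the share of members called higher was near that of all genes, and the share called lower was below it. The fit over all 9 libraries called 44 and 3, against 31.5% and 16.7%.

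The count rested heavily on single libraries. It was 5, 5 and 3 of 82 without NRASG12D replicates 1, 2 and 3, while 13.5%, 14.3% and 12.8% of all genes were called higher. In each of these fits the share of members called higher was thus below that of all genes. Without NUP98-NSD1+NRASG12D replicates 1, 2 and 3 it was 31, 53 and 14, against 25.5%, 31.1% and 19.4% of all genes. The share of members was above that of all genes without replicates 1 and 2, and below it without replicate 3. The median stayed between 0.38 and 0.70. At an unadjusted p under 0.05 there were 49 members, against 49.6% of all genes.

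The members called higher came from all 5 complexes. Ndufs4 was 1.21 ± 0.24 higher (adjusted p = 0.00895, 2.31-fold) and Atp5k 1.14 ± 0.21 (adjusted p = 0.00606), and in both all 3 libraries exceeded every NRASG12D library. Sdhd rose by 0.95 ± 0.24 (adjusted p = 0.0201), Sdhc by 0.65 ± 0.14 and Sdhb by 0.60 ± 0.18, whereas Sdha was at 0.46 ± 0.19 (adjusted p = 0.0932). In complex III, Uqcrq rose by 1.00 ± 0.28, Uqcrc1 by 0.98 ± 0.24 and Uqcrfs1 by 0.95 ± 0.21, and Uqcrh was at 0.35 ± 0.23 (adjusted p = 0.255). In complex V, Atp5b read 1012, 579 and 711 FPKM, each above the NRASG12D libraries, and rose by 0.96 ± 0.24 (adjusted p = 0.0195). Atp5a1 was at 0.66 ± 0.22 (adjusted p = 0.0537), and the core complex I subunit Ndufv1 missed the threshold at 0.69 ± 0.23 (adjusted p = 0.0524), while Ndufs1 passed it at 0.51 ± 0.16 (adjusted p = 0.0436).

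Ndufa1 and Atp5f1 went the other way. Ndufa1 read 143, 115 and 122 FPKM with both oncogenes, below all 3 NRASG12D libraries, and fell by 0.49 ± 0.15 on the log2 scale (adjusted p = 0.0385), a call that was lost without any of the NRASG12D libraries or without NUP98-NSD1+NRASG12D replicate 3. Atp5f1 read 242, 155 and 165 FPKM, also below all NRASG12D libraries, at -0.60 ± 0.21, which missed the threshold (adjusted p = 0.0578) and passed it with median-ratio scaling (-0.84). So the gene for the peripheral stalk subunit b stood lower in these libraries while that for the catalytic beta subunit stood higher. The 100 bases before the start of these genes (Ndufa1 at chrX:37191239-37191338 and Atp5f1 at chr3:105959264-105959363, both minus strand) and of Cox7a1 (chr7:30184071-30184170, plus strand) held none of the motifs searched and are shown because their values ran against the rest. Most member promoters held none of these motifs either: the NRF1, YY1, GABPA and estrogen-related receptor letters were in 10, 7, 5 and 2 of 68.
Ndufa1: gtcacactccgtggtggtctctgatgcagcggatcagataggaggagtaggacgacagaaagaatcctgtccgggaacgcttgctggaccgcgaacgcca
Atp5f1: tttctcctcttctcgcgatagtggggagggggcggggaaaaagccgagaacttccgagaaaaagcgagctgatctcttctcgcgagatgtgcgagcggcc
Cox7a1: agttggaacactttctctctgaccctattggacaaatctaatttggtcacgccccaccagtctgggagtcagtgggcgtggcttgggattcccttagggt

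**Figure D4:**
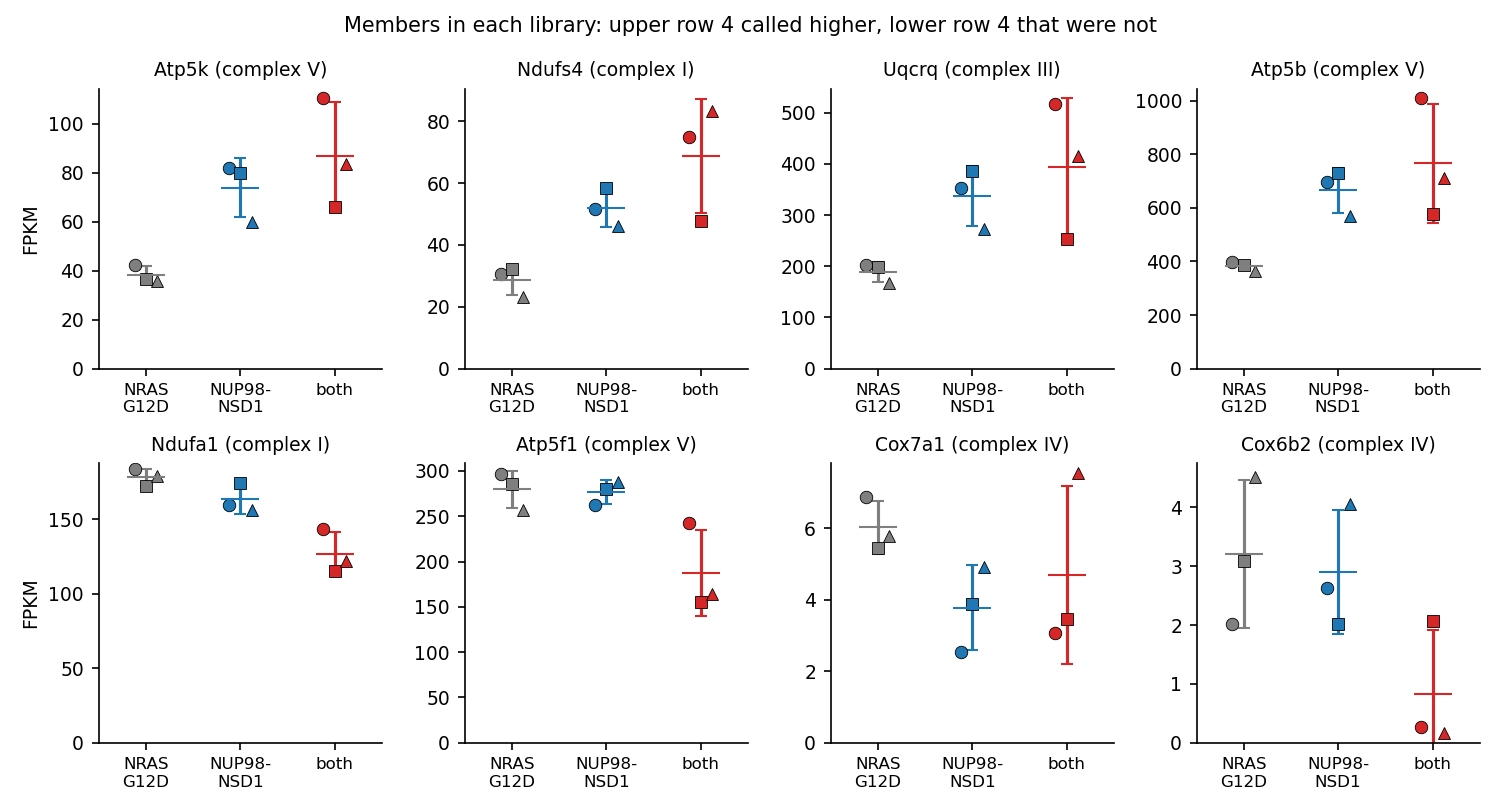
FPKM (vertical axes, from 0) of 8 members in each library (points) with group means, by group (horizontal axes, "both" for NUP98-NSD1+NRASG12D). The upper row shows 4 members called higher with NUP98-NSD1 than with NRASG12D, whose NRASG12D points are the lowest, and the lower row 4 that were not, among them Ndufa1 and Atp5f1, whose libraries with both oncogenes are the lowest.

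The last comparison, cells with both oncogenes against cells with the fusion alone, asked what NRASG12D changed in the presence of NUP98-NSD1. No member was called by limma in either direction, against 2.3% of all genes called higher and 6.31% lower. At an unadjusted p under 0.05 there were 2 members, Cox6b2 and Atp5f1, against 24.6% of all genes. The median of the members was 0.04 and that of all genes -0.06, 52 values were positive and 30 negative, and the sign of the median turned with quantile normalization and with TPM-like scaling (-0.04 in both). By complex the medians were 0.02, 0.12, 0.12, 0.04 and 0.03 for I to V. Standard errors were wide, for example 0.28 for Atp5g1, whose value was 0.07, so that no call does not show that the levels were alike. No member had all libraries above those of the other group (11.6% of all genes), and 2, Ndufa1 and Atp5f1, had all below (19.8%). Ndufa1 was at -0.37 ± 0.16 (adjusted p = 0.212) and Atp5f1 at -0.59 ± 0.21 (adjusted p = 0.143). The members with the highest value in their complex were Ndufv3 (0.39 ± 0.20), Sdhc (0.23 ± 0.16), Uqcrb (0.33 ± 0.24), Cox6a2 (0.83 ± 0.38, at low levels) and Atp5k (0.21 ± 0.23), all with adjusted p above 0.05.

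Several subunits have isoforms of restricted tissue use. Cox6a2, the heart and muscle isoform of subunit 6a, read 0.0748, 0.0509 and 0 FPKM in NRASG12D libraries, 1.33, 0.478 and 0.975 in NUP98-NSD1 and 4.92, 1.18 and 1.96 in NUP98-NSD1+NRASG12D libraries. The first 3 values correspond to at most 1.23 fragments, under a floor of 3 fragments (0.124 to 0.196 FPKM), so no fold is given. It passed the filter only through the groups where it was present, so its calls in both comparisons with NRASG12D are no result. Without it the counts called higher were 68 of 81 members and 8 of 13 in complex IV with NUP98-NSD1, and 29 of 81 and 2 of 13 with both oncogenes. Even with both oncogenes it supplied 0.47% ± 0.28 of the FPKM of Cox6a1 and Cox6a2 together. Cox4i2, the lung isoform of subunit 4, was listed at 0 in the NRASG12D libraries and read 1.07, 0.69 and 0.276, and 3.7, 0.951 and 0.935 FPKM in the other groups, and was not tested.

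Cox7a1 and Cox6b2 were the isoforms that stood lower. Cox7a1 made up 5.41% ± 0.67 of Cox7a1 plus Cox7a2 in NRASG12D, 2.28% ± 0.91 in NUP98-NSD1 and 2.27% ± 1.04 in NUP98-NSD1+NRASG12D libraries, and its share in every NRASG12D library was above that in every other library. In the last group its FPKM was 3.06, 3.46 and 7.55, overlapping with NRASG12D (-0.38 ± 0.30, adjusted p = 0.338), while its partner Cox7a2 rose by 0.92 ± 0.22. Cox6b2, the testis isoform of subunit 6b, read 2.01, 3.09 and 4.51 FPKM in NRASG12D, 2.64, 2.01 and 4.06 in NUP98-NSD1, and 0.269, 2.07 and 0.164 in NUP98-NSD1+NRASG12D libraries. It fell by 1.30 ± 0.42 on the log2 scale against NRASG12D (adjusted p = 0.0452), though replicate 2 of the last group lay among the NRASG12D values, and the call held without that library but was lost without any other.

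The c-ring genes kept their order, with Atp5g1 and Atp5g3 far above Atp5g2. The share of Atp5g1 was 44.8% ± 1.06 with NRASG12D, 47.8% ± 1.74 with the fusion and 49.4% ± 1.88 with both, and that of Atp5g3 41.4% ± 1.15, 40.5% ± 0.98 and 40.7% ± 1.19. The share of Atp5g2 was 13.9% ± 1.2, 11.7% ± 0.76 and 9.95% ± 0.73, and its values in NRASG12D libraries lay above those in libraries with both oncogenes without overlap. An exact permutation test of 3 against 3 cannot go below p = 0.1, so no test of these shares is given.

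The mitochondrially encoded subunits were described from the same fits. None of the 13 was called higher by limma in any comparison, and at an unadjusted p under 0.05 there were 3 higher and 2 lower with NUP98-NSD1 against NRASG12D and 0 in the comparisons with both oncogenes. Against NRASG12D, 2 fell with NUP98-NSD1: mt-Nd2 of complex I, at 74.6, 84.6 and 84.6 against 66.2, 64.9 and 69.6 FPKM (-0.28 ± 0.08, adjusted p = 0.0274), and mt-Nd3, also of complex I, at 16.5, 17.4 and 18.4 against 12.8, 12.9 and 12.8 FPKM (-0.41 ± 0.08, adjusted p = 0.00638). Of all genes 42.2% were called higher and 9.98% lower there, so 2 of 13 lower is no result about the list. With median-ratio scaling 2 were lower too, against 23.3% of all genes. The medians of the 13 were 0.14 in NUP98-NSD1 and -0.07 in NUP98-NSD1+NRASG12D against NRASG12D cells, or -0.20 and -0.31 with median-ratio scaling, so the sign of the first depended on the scale and its place below all genes did not. The ratio of their summed FPKM to that of the nuclear members was 0.469, 0.525 and 0.660 in NRASG12D, 0.415, 0.405 and 0.473 in NUP98-NSD1, and 0.380, 0.479 and 0.2496 in NUP98-NSD1+NRASG12D libraries. The lowest, in replicate 3 of the last group, went with a summed mitochondrial FPKM of 3566, against 4974 to 7358 in the other 8 libraries.

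Other nuclear genes of the pathway were described from lists. Of 5 further nuclear components outside the name rule, 4 rose with NUP98-NSD1 against NRASG12D, led by Cyc1, the haem subunit of complex III, which rose by 1.02 ± 0.12, and Ndufab1, the mitochondrial acyl carrier protein of complex I, which rose by 0.75 ± 0.13. In cells with both oncogenes 3 of the 5 rose against NRASG12D, Cyc1 by 1.29 ± 0.24, and 1 fell, Dmac2l (-1.01 ± 0.17), known as the factor B subunit linked to ATP synthase, which also fell against the fusion alone (-0.83 ± 0.18). Of the assembly factors, 26 of 50 tested rose with NUP98-NSD1 (median 0.32) and 10 of 50 with both oncogenes (median 0.28, 1 fell), beside all-gene medians of 0.27 and 0.23 and shares called higher of 42.2% and 24.2%. With median-ratio scaling 12 were higher and 3 lower, and 8 higher and 4 lower. By complex, 13 of 16 assembly factors of complex I rose with NUP98-NSD1, 1 of 4 of complex II, 3 of 6 of complex III, 7 of 21 of complex IV and 2 of 3 of complex V.

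Of 15 tested regulators of mitochondrial genes, 9 rose with NUP98-NSD1 and 4 with both oncogenes against NRASG12D, where 42.2% and 24.2% of all genes rose. With median-ratio scaling 4 were higher and 1 lower, and 2 higher and 1 lower. Nrf1, the factor of the palindrome above, read 20.6, 21.7 and 20.0 FPKM in NRASG12D, 34.0, 29.1 and 25.6 in NUP98-NSD1, and 40.6, 24.8 and 35.8 in NUP98-NSD1+NRASG12D libraries, and rose by 0.48 ± 0.11 and 0.65 ± 0.20. Slirp, which stabilizes mitochondrial mRNAs, rose by 0.76 ± 0.14 and 1.12 ± 0.21, and the coactivator Ppargc1b by 0.70 ± 0.13 and 0.71 ± 0.17. Yy1 rose by 0.51 ± 0.10 and 0.53 ± 0.17. Esrra, the estrogen-related receptor alpha, was at -0.24 ± 0.12 and -0.51 ± 0.20 (adjusted p = 0.126 and 0.0856), and Gabpa at 0.22 ± 0.09 and 0.30 ± 0.14, with no call. Tfam, which packages mitochondrial DNA, rose by 0.43 ± 0.12 with NUP98-NSD1 and was at 0.10 ± 0.26 with both oncogenes.

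Lists of other cell machinery were set beside the members. With NUP98-NSD1 against NRASG12D, 15 of 16 enzymes of the TCA cycle rose (median 0.57), 72 of 78 proteins of the mitochondrial ribosome (0.70), 75 of 85 of the cytosolic ribosome (0.59) and 34 of 39 of the proteasome (0.51), beside 69 of 82 OXPHOS members (0.54). With both oncogenes against NRASG12D, the counts were 12 of 16 (0.72), 46 of 78 (0.79), 17 of 85 (0.53) and 23 of 39 (0.64), beside 30 of 82 (0.55). None of the genes in these lists fell in either comparison on this scale. The shares called higher among all genes were 42.2% and 24.2%, so the count of the cytosolic ribosome with both oncogenes was no higher than that of genes at large. With median-ratio scaling, which called 22.7% and 19.8% of all genes higher, the counts with NUP98-NSD1 were 8 of 16, 56 of 78 (2 lower), 32 of 85 and 17 of 39, beside 33 of 82 members, and with both oncogenes 11 of 16, 44 of 78, 14 of 85 and 20 of 39, beside 26 of 82. Citrate synthase, Cs, read 74.3, 75.9 and 72.5 FPKM in NRASG12D and 102, 100 and 94.6 in NUP98-NSD1 libraries and rose by 0.41 ± 0.07 (adjusted p = 0.00398), and by 0.46 ± 0.15 with both oncogenes.

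**Figure D5:**
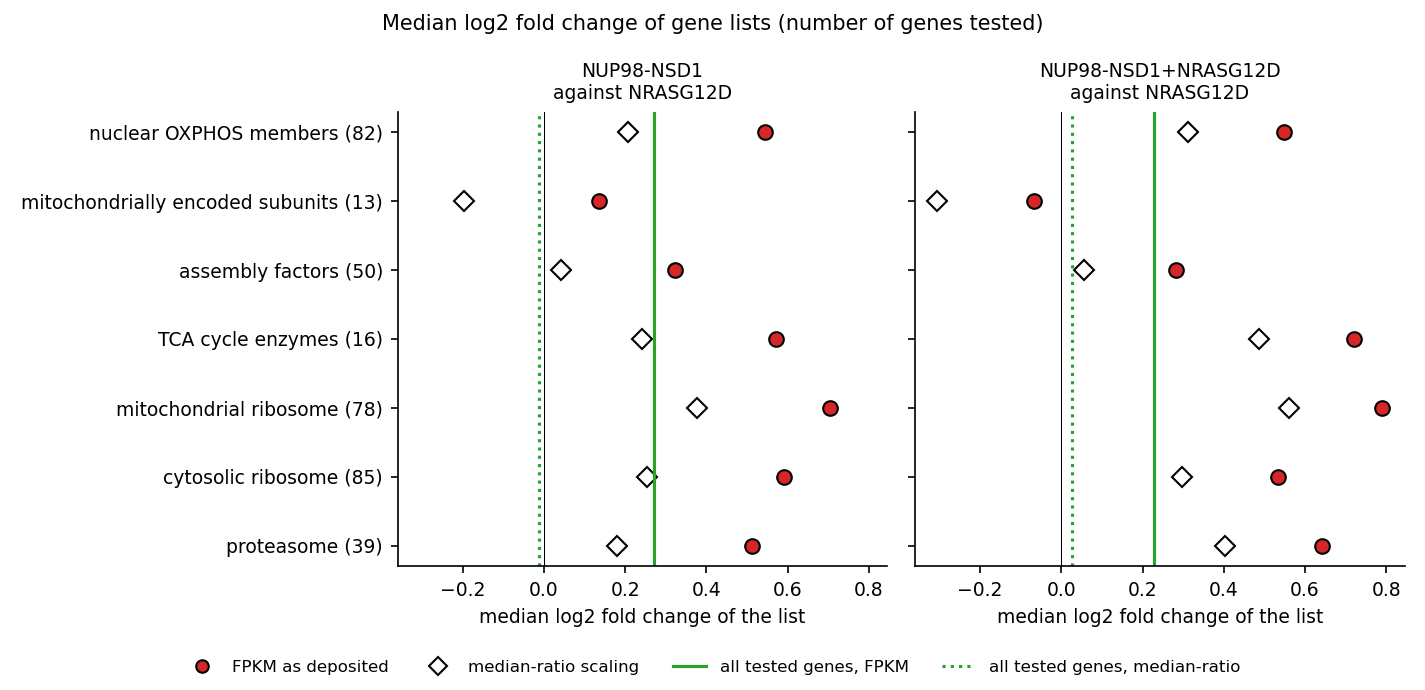
Median log2 fold change (horizontal axes) of gene lists (rows, with the number of genes tested) in both comparisons with NRASG12D, from deposited FPKM (circles) and with median-ratio scaling (diamonds), with the medians of all tested genes (lines). OXPHOS members at 0.54 and 0.55 lie right of all genes and near the cytosolic ribosome (0.59 and 0.53). The mitochondrial ribosome lies further right (0.70 and 0.79), as does the TCA cycle in the right panel (0.72, against 0.57 in the left). Mitochondrially encoded subunits lie left of all genes on both scales, and their median changes sign between scales in the left panel.

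The cell type markers given above also differed between the groups. Against NRASG12D, 9 of 10 granulocyte markers and 8 of 8 monocyte and macrophage markers rose in both other groups. Of 10 mast cell markers 4 fell and 3 rose with NUP98-NSD1, and 8 fell and 2 rose with both oncogenes. Those that rose include Cpa3, whose 0 in the NRASG12D libraries may not be a true level. Between the groups with the fusion, 8 of 10 mast cell markers fell, and 3 of 10 granulocyte and 2 of 8 monocyte and macrophage markers rose. Of all genes 2.3% were called higher and 6.31% lower there. The part of cell type in the difference of the OXPHOS genes was not tested. Fold changes also differed with transcript length, whose part was not tested either: tested genes with a longest transcript up to 1500 bp had a median of 0.42 in NUP98-NSD1 against NRASG12D and longer ones 0.22. The members are short, with a median of 992 bp against 2797 bp for all tested genes. The 27 members over 1500 bp had a median of 0.55 with 24 called higher (88.9%, against 39.5% of all genes of that length), beside 0.54 and 45 of 55 for the shorter members (81.8%, against 49.9%).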

How the data were processed

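Per the labels and the study's methods, total RNA from the cultures was sequenced as paired reads of 50 bp, which were aligned to GRCm38.p6 with STAR 2.7.2a against GENCODE M22. The authors deposited FPKM per gene, made with Cufflinks 2.2.1, in 1 file per library, and their strand setting is not given in the sources used here. Read counts were not used here, since the deposited values are FPKM, so no count model was run. Between 83.9% and 86.5% of low values lay on whole steps of 1 fragment (tolerance 0.1), which gave the depth of 22500000 to 35500000 fragments. Values under 3 fragments were read as a floor, which covers counting error only.

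Groups came from the sample labels. Log2(FPKM + 1) of the 13493 genes with 1 FPKM or more in 3 or more of 9 libraries was tested with limma 3.58.1 (R 4.3.3, lmFit and eBayes with a variance trend) on the 6 libraries of each comparison, two-sided, with p-values adjusted by Benjamini-Hochberg over these genes and a threshold of 0.05. Fold changes are on the log2(FPKM + 1) scale, which understates those of low genes. Alternatives were a pseudocount of 0.1, no filter, a minimum of 5, quantile normalization, median-ratio scaling, a TPM-like scale without mitochondrially encoded genes, all 9 libraries in one fit, array weights, no variance trend, the replicate number as a block, protein-coding members alone, and leaving out each library.

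Named members were those with the highest and lowest log2 fold change per complex and comparison, those called against the majority, listed core and isoform genes, and the most abundant member per complex. From the other lists, the genes named were the highest and lowest, and the regulators. One member that this rule names is counted with the rest but not reported by itself here. Any other gene was named after its values were seen. The members, lists and tests were chosen with earlier results of these data known. Coordinates and lengths are from GENCODE M21 (GRCm38), and promoters from RefSeq (GRCm38.p6), which lacked 16 of the 82 tested members.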

Additional observations from a re-analysis of the deposited data

How the results depend on the processing

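For NUP98-NSD1 against NRASG12D, the count of members called higher moved from 69 to 36 with quantile normalization, 33 with median-ratio scaling and 31 with all 9 libraries in one fit. It ranged from 50 to 70 when a library was left out, where 28.9% to 47% of all genes were called higher. The count called lower moved from 1 to 0 without a filter, with all 9 libraries in one fit and with the replicate block, to 4 with quantile normalization, 5 with median-ratio scaling and 2 with TPM-like scaling. It ranged from 0 to 1 when a library was left out, where 6.21% to 11.9% of all genes were called lower. The median log2 fold change of 0.54 moved to 0.27, 0.21 and 0.38 under these 3 scalings and stayed between 0.47 and 0.61 when a library was left out. For NUP98-NSD1+NRASG12D against NRASG12D, the count called higher moved from 30 to 7 without a filter (5.07% of all genes, against 24.2% with it), 14 with quantile normalization and 17 with TPM-like scaling. It ranged from 3 to 53 when a library was left out, where 12.8% to 31.1% of all genes were called higher. The count called lower moved from 2 to 1 with a pseudocount of 0.1, a minimum of 5 or the replicate block, to 0 without a filter and to 5 with quantile normalization. It ranged from 0 to 2 when a library was left out, where 9% to 15.7% of all genes were called lower. For NUP98-NSD1+NRASG12D against NUP98-NSD1, array weights called 3 members lower (17.2% of all genes), and leaving out a library 0 to 1 (1.89% to 12.1% of all genes). The median ranged from -0.14 to 0.19. Leaving out a library leaves fewer samples. The cause of the other moves was not tested.

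Named members changed sign as follows. Cox5a in NUP98-NSD1 against NRASG12D went to -0.079, -0.22 and -0.052 with quantile, median-ratio and TPM-like scaling, and in NUP98-NSD1+NRASG12D against NRASG12D to -0.11, -0.054 and -0.062. Cox7a2l went to -0.18, -0.22 and -0.047, and to -0.22, -0.078 and -0.085. Uqcrh in the latter comparison went to -0.0054 with quantile normalization. Sdha in NUP98-NSD1+NRASG12D against NUP98-NSD1 went to -0.067 with quantile normalization, -0.063 with TPM-like scaling and -0.21 with array weights. Leaving out a library gave values from -0.073 to 0.030 for Atp5f1 and from -0.32 to 0.12 for Cox6b2 in NUP98-NSD1 against NRASG12D, and from -0.13 to 0.18 for Sdha and from -0.32 to 0.079 for Uqcr10 in NUP98-NSD1+NRASG12D against NUP98-NSD1.

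No pairing by replicate number was seen: the correlation of same-numbered samples' deviations ran from -0.18 to 0.16. With 3 samples a group these values cannot show that there was none. With the replicate block, 71 members were called higher in NUP98-NSD1 against NRASG12D (41.6% of all genes), 25 higher and 1 lower in NUP98-NSD1+NRASG12D against NRASG12D (21.3% and 12.3%), and 0 in the remaining comparison.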
